A study of Mus musculus with 21 samples.

Results

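Transcripts of 9 B cell identity genes were followed in RNA-seq libraries of CD11b+ cells from the mouse peritoneal cavity. The genes were chosen by name: Cd79a, Cd79b, Ms4a1, Cd22, Siglecg, Cr2, Pax5, Ebf1 and Bhlhe41. All 9 were found among the 23544 genes of the deposited table, and TPM (each transcript's share of a library's RNA, corrected for transcript length) was summed over the transcripts of each gene. The series holds 21 libraries from C57BL/6 mice, with 1 library for each combination of genotype label, added protein and stimulus. The 9 wild-type libraries cover every pairing of a protein setting (none, recombinant lumican, recombinant biglycan) with a stimulus setting (none, LPS, CpG). The 6 libraries labelled Lum-/- pair the same stimulus settings with lumican or without, and the 6 labelled Bgn-/- (Bgn-/0 for some animals in the protocol) with biglycan or without. Stimulation lasted 6 h, with 100 ng/mL of LPS (a TLR4 ligand) or 1 µM of CpG DNA (a TLR9 ligand). The proteins were used at 10 µg/mL, starting 1 h before the stimulus, while the libraries with protein alone have no stated dose or time. All cells came from unelicited lavage (mice n = 10), were selected with a CD11b kit and were plated overnight. The labels do not say which animals went into which well, so that genotype and cell preparation cannot be told apart.

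CD11b is an integrin chain best known from myeloid cells, and peritoneal B-1 cells carry it too, so a CD11b selection of lavage cells can hold B cells beside macrophages. B cells read antigen through surface immunoglobulin, and the chains encoded by Cd79a and Cd79b carry that signal into the cell. Ms4a1 encodes CD20, Cd22 and Siglecg encode lectins that damp the receptor signal, and Cr2 encodes the complement receptor CD21, which is low on B-1 cells and high on marginal zone B cells. Pax5 and Ebf1 encode the transcription factors that set and hold B lineage identity. Bhlhe41 encodes a transcription factor of B-1a cells that tissue macrophages also express, so it is the least B cell restricted of the 9. Both TLR4 and TLR9 are expressed by B cells and by macrophages. In bulk libraries of this kind, fewer B cells and less RNA per B cell cannot be told apart.

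Promoter sequence is shown for 4 members. These are the factor Pax5, which rose with CpG, and the receptor chain Cd79a and the inhibitory lectins Siglecg and Cd22, which fell. The fall of Cd79a was small, and its call was lost in several other fits, as given below. The RefSeq promoter table (build GRCm38.p6, 250 bases before to 50 after a start site) held entries for 7 of the 9 genes. Printed below is the stretch before the RefSeq start site that overlaps no annotated exon of the gene, 5′ to 3′ on the gene's strand. It is chr7:24897247-24897380 (plus strand) for Cd79a, chr4:44710695-44710944 (minus) for Pax5, chr7:43407989-43408203 (plus) for Siglecg and chr7:30879029-30879176 (minus) for Cd22. The Cd22 stretch lies between annotated exons, inside the span of the gene (30865402 to 30880342), whose annotated 5′ end is further upstream. Capitals mark matches to any of 5 motifs.
Cd79a: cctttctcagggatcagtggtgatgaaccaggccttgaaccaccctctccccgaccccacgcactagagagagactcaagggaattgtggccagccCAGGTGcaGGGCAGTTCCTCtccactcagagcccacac
Pax5: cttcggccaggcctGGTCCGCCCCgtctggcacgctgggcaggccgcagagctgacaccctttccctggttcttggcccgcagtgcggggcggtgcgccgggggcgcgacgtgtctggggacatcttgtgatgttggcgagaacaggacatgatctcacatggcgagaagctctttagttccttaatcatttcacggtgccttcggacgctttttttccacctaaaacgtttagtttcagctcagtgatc
Siglecg: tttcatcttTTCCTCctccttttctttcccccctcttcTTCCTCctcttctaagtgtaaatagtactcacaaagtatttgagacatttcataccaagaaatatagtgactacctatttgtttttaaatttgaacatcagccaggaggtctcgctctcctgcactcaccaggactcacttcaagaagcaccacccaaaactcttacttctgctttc
Cd22: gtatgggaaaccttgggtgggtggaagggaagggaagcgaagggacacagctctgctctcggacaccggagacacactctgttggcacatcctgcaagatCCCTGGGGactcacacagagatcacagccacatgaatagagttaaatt
The motifs were searched on both strands over the whole 300 bases: the EBF1 core CCCNNGGG, the octamer ATTTGCAT, the PU box GAGGAA, the E box CAGGTG and an NF-kB pattern (GGG, then any 5 bases, then CC). The Cd79a stretch holds an E box, then an NF-kB match whose last bases overlap a PU box on the other strand. Pax5 holds 1 NF-kB match on the minus strand of the entry, Siglecg holds 2 PU boxes, and Cd22 holds an EBF1 core in the printed stretch and an E box outside it. Of the 7 members with an entry, taking the first listed entry of each, 5 held an NF-kB match (Cd79a, Pax5, Bhlhe41, Ebf1, Cr2), 4 an E box (Cd79a, Cd22, Bhlhe41, Cr2), 2 a PU box (Cd79a, Siglecg), 1 an EBF1 core and 0 the octamer. The same search over all 32851 promoters of this length found the NF-kB pattern in 50.8%, the PU box in 28.3%, the E box in 20.2%, the EBF1 core in 13.7% and the octamer in 1.74%. A match describes the letters and is no evidence of binding.

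Estimated depth was 13.3 to 21.5 M reads in 19 libraries and 2.43 and 2.45 M in the other two. One of these carries the label Lum-/- with no treatment, and the other the label Bgn-/- with biglycan and no stimulus. They differed from each other by less than sampling noise, with 0.1947 times the chi-square expected from sampling alone over 9038 genes, against at least 1.795 in the other 209 pairs. They carry different labels for genotype and protein, so they were left out of every test below. A result for a member is also given with them where its call or sign changed or a called value moved by over 1.5 times. For single genes of the other lists no values with the pair are given. The labels were checked with the targeted genes, and both went against them. Lum was at 1.17 to 14.1 TPM in the 5 tested libraries labelled Lum-/- and at 0 to 1.4 TPM in wild type. Bgn was at 0.758 to 3.49 TPM in the 5 tested libraries labelled Bgn-/- and at 0.327 to 1.52 TPM in wild type. Each label was instead low in the gene of the other label. Bgn was at 0 to 0.263 TPM in the tested libraries labelled Lum-/-, and Lum at 0 to 0.134 TPM in those labelled Bgn-/-. Whether the 2 labels were exchanged was not tested. Genotypes are therefore named as labels throughout. Untreated wild type was unlike the rest of its genotype: Cma1, a mast cell protease, was at 1.03 TPM there and at 20.5 to 34.2 TPM in the other wild-type libraries. Of 12 macrophage markers all were measured, and their summed TPM was 40944 to 47296 without stimulus, 16079 to 20125 with LPS and 35835 to 40550 with CpG. Most of that sum was Lyz2, with means of 36220 TPM without stimulus, 11972 TPM with LPS and 30971 TPM with CpG. The sum therefore mainly follows this gene, and single markers went both ways with LPS, as counted below. Neutrophil markers (6 genes) summed to 125 to 162 TPM without stimulus, 318 to 398 TPM with LPS and 150 to 204 TPM with CpG, nearly all of it S100a8 (mean 222 TPM), while the defining markers Ly6g, S100a9 and Ngp had means of 0.0397, 0.132 and 0.0169 TPM. Both neutrophil markers tested, S100a8 and Camp, rose with LPS and with CpG. Mast cell markers (7) summed to 2.72 to 116 TPM. T cell markers (8) summed to 4.81 to 11.5 TPM, NK cell markers (6) to 0.39 to 2.13 TPM, and eosinophil markers (4, with Epx at 0 in all 19) to 0.0937 to 1.09 TPM. Markers of mesothelium and fibroblasts (8) summed to 0.174 to 3.83 TPM.

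All 9 genes had a value above 0 in every library. Per unit of transcript length, mean TPM over the 19 libraries was 63.4 ± 35.4 for Bhlhe41, 50.1 ± 10.9 for Cd79a, 35.1 ± 15.2 for Cd79b, 15.5 ± 4.75 for Ms4a1, 13.1 ± 7.16 for Cd22, 5.65 ± 2.98 for Pax5, 4.77 ± 3.17 for Siglecg, 1.32 ± 0.462 for Ebf1 and 0.842 ± 0.565 for Cr2 (SD, n = 19). Neighbours in this order overlapped in range over the 19 libraries, a spread that includes the stimuli. The ranges alone thus do not order Bhlhe41 and Cd79a, Ms4a1 and Cd22, Pax5 and Siglecg, or Ebf1 and Cr2. Within a stimulus an order could hold. Siglecg was at 7.4 to 11 TPM and Pax5 at 1.93 to 3.53 TPM without stimulus. With CpG they were at 1.11 to 2.69 TPM and 7.23 to 11.8 TPM. The summed level of the 9 was 103 to 294 TPM, beside 718 to 1767 TPM for 11 immunoglobulin constant region genes. Over all 21 libraries the estimated reads behind a value were 221.8 to 1292.7 for Cd79a, 51.3 to 937.2 for Pax5, 15.7 to 133.7 for Ebf1 and 4.4 to 47.7 for Cr2, so that Ebf1 and Cr2 are the least precise. Cr2 had a mean under 1 TPM and did not enter the tests, which covered the other 8.

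**Figure D1:**
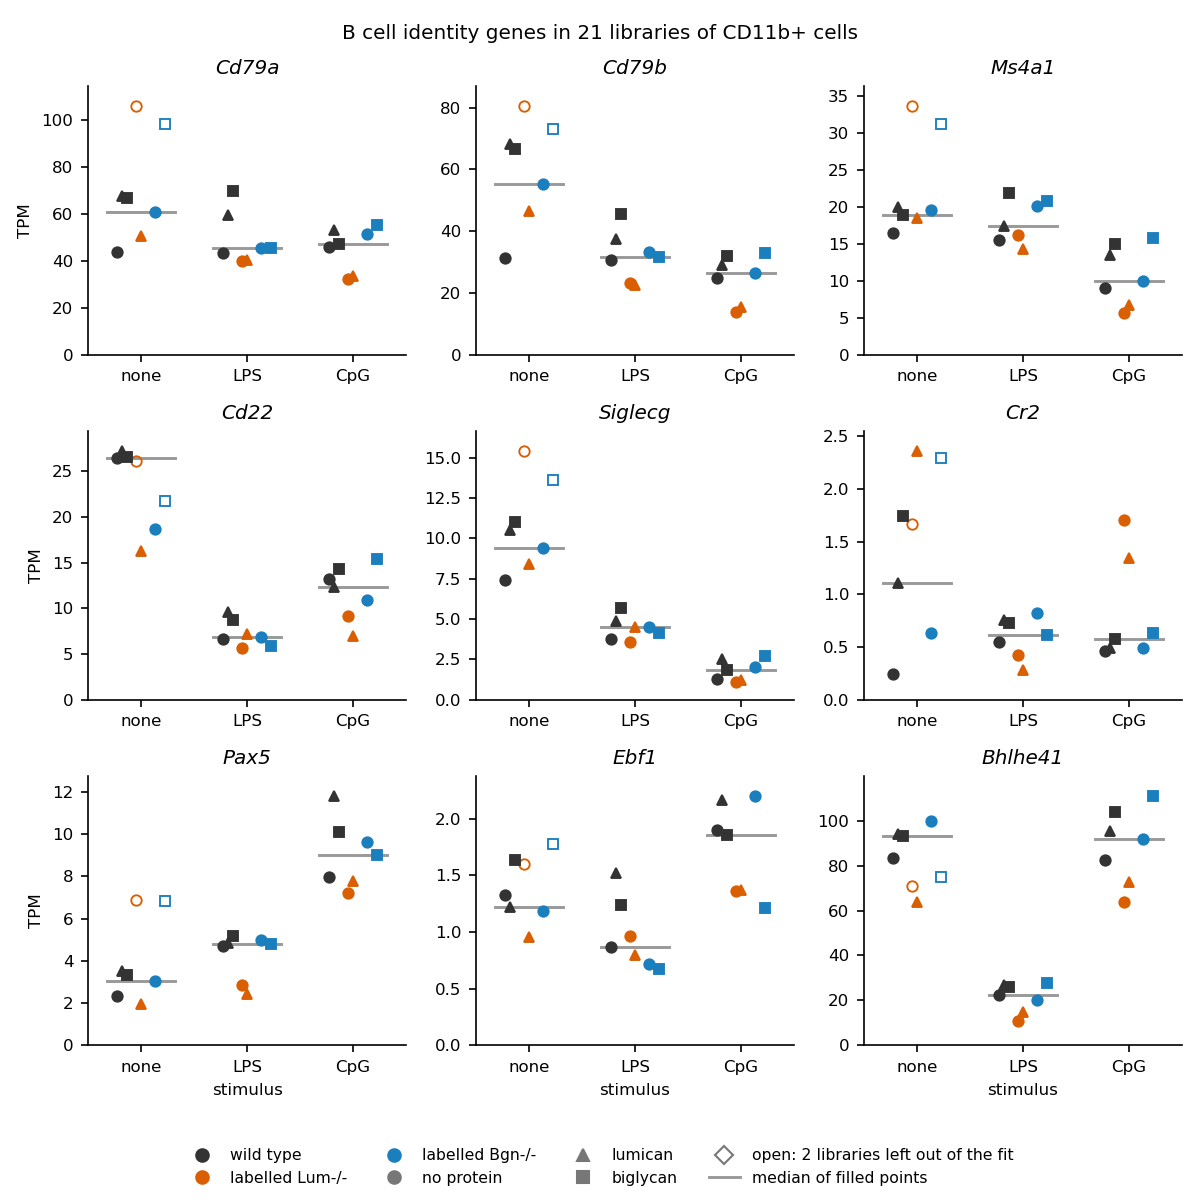
TPM of the 9 genes (vertical axes, from 0) in 21 libraries by stimulus (horizontal axis), with colour for the genotype label, shape for the added protein, a grey bar for the median of the tested libraries and open symbols for the pair left out. Pax5 is highest in the 7 CpG libraries (7.23 to 11.8 TPM), and Siglecg is lowest in them (1.11 to 2.69 TPM).

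The effect of each stimulus was tested with limma on log2(TPM + 1), with genotype label, protein and stimulus as main effects in 19 libraries. A difference was called at a Benjamini-Hochberg adjusted p under 0.05 over 11672 genes. No combination has a replicate, so the spread behind each p comes from the other combinations and may be technical. Under CpG, 2 of the 8 tested members rose and 5 fell, where 16.9% of all genes rose and 22.2% fell. Under LPS, 1 rose and 4 fell, where 14.8% of all genes rose and 72.5% fell. The LPS split rests on the scale: the median gene changed by -0.71 with LPS (log2) and by -0.04 with CpG. After median-of-ratios scaling, which centres the typical gene on 0, 4 members rose and 2 fell with LPS, where 40.4% of all genes rose and 39.3% fell. The scaled CpG split was 2 rising and 4 falling. For that reason LPS values below are given on both scales.

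The receptor chains came first by role. Cd79a (ENSMUSG00000003379, chromosome 7, 24897381 to 24902197, 1 annotated transcript) encodes Ig-alpha. Unstimulated libraries had 43.8 TPM in untreated wild type, 67.5 in wild type with lumican, 66.8 in wild type with biglycan, 50.4 in cells labelled Lum-/- with lumican and 60.7 in untreated cells labelled Bgn-/-. With LPS the lowest, median and highest of 7 libraries were 39.8, 45.3 and 69.6 TPM, and with CpG 32.1, 47.3 and 55.2 TPM. The 3 ranges overlapped widely. The LPS difference was -0.20 ± 0.11 (log2 ± SE, adjusted p = 0.104) as deposited and 0.60 ± 0.11 (adjusted p = 0.000129) after scaling, so its sign depends on the scale. Without the untreated wild-type library the deposited value was -0.29 (adjusted p = 0.0156), and without the wild-type library with biglycan and LPS it was -0.26 (adjusted p = 0.0237). With all 21 libraries it was -0.48 (adjusted p = 0.0183). With CpG, Cd79a fell by 0.31 ± 0.11 on the log2 scale (adjusted p = 0.0386), and scaling ended this call (adjusted p = 0.065). With all 21 libraries the CpG value was -0.59 (adjusted p = 0.015). Against untreated libraries alone, in a fit of the 9 treatments, it was -0.12 (adjusted p = 0.69). The CpG call was also lost when any of 9 libraries was left out. These were the unstimulated libraries other than untreated wild type and the CpG libraries not labelled Bgn-/- (adjusted p up to 0.122).

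Cd79b (ENSMUSG00000040592, chromosome 11, 106311341 to 106314762) encodes Ig-beta. It stood at 31.3 TPM in untreated wild type, and at 68.2, 66.7, 46.5 and 55.2 TPM in the unstimulated libraries of wild type with lumican, wild type with biglycan, cells labelled Lum-/- with lumican and untreated cells labelled Bgn-/-. LPS libraries ran from 22.7 over a median of 31.7 to 45.5 TPM, and CpG libraries from 13.9 over 26.6 to 33 TPM. Every matched pair was lower with CpG (5 of 5) and with LPS (5 of 5), although the untreated wild-type library lay inside both stimulated ranges. Cd79b fell by 1.03 ± 0.14 on the log2 scale with CpG (adjusted p = 4.44e-05). It fell by 0.66 ± 0.14 with LPS (adjusted p = 0.000407), but after scaling the LPS difference was 0.14 ± 0.15 (adjusted p = 0.402). Against untreated libraries alone, in a fit of the 9 treatments, the LPS value was -0.29 (adjusted p = 0.213).

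Among the surface receptors, Ms4a1 (ENSMUSG00000024673, chromosome 19, 11249675 to 11266241) encodes CD20, a tetraspanning membrane protein of mature B cells. Its unstimulated values lay close together, at 16.4, 20, 18.9, 18.5 and 19.5 TPM in the order of libraries used for Cd79b. CpG libraries had 5.58, 9.93 and 15.7 TPM as lowest, median and highest, all under the lowest unstimulated value. The 2 lowest were both labelled Lum-/- (5.58 and 6.75 TPM). Ms4a1 fell by 0.80 ± 0.13 on the log2 scale with CpG (adjusted p = 0.000135). With LPS the range of 14.3 to 21.9 TPM enclosed the unstimulated one, and the difference was -0.05 ± 0.13 (adjusted p = 0.726) as deposited and 0.73 ± 0.13 (adjusted p = 0.000115) after scaling.

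Cd22 (ENSMUSG00000030577, chromosome 7, 30865402 to 30880342) encodes an inhibitory co-receptor that binds sialic acid and recruits phosphatases. It was at 26.5, 27.2 and 26.6 TPM in the unstimulated wild-type libraries (no protein, lumican, biglycan), at 16.3 TPM in cells labelled Lum-/- with lumican and at 18.7 TPM in untreated cells labelled Bgn-/-. LPS libraries had 5.72, 6.91 and 9.6 TPM as lowest, median and highest, and CpG libraries 6.94, 12.3 and 15.4 TPM. Neither stimulated range reached the unstimulated one. Cd22 fell by 1.48 ± 0.12 on the log2 scale with LPS (adjusted p = 5.97e-09), and by 0.73 ± 0.12 after scaling (adjusted p = 3.44e-05). It fell by 0.87 ± 0.12 with CpG (adjusted p = 5.28e-05). The gene has 16 annotated transcripts in the table, and protein-coding ones held 42.2% to 93.5% of its TPM per library, so part of the sum is not coding RNA.

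Siglecg (ENSMUSG00000030468, chromosome 7, 43408204 to 43418358) encodes Siglec-G, the inhibitory lectin best known from B-1 cells, and gave the largest fall of the 8 tested members with CpG. Unstimulated libraries had 7.4, 10.5 and 11 TPM in wild type (no protein, lumican, biglycan), 8.43 TPM in cells labelled Lum-/- with lumican and 9.39 TPM in untreated cells labelled Bgn-/-. LPS libraries had 3.57, 4.53 and 5.68 TPM as lowest, median and highest, and CpG libraries 1.11, 1.82 and 2.69 TPM. The 3 conditions formed separate ranges, in the order none, LPS, CpG. With CpG, Siglecg fell by 1.87 ± 0.11 on the log2 scale (adjusted p = 5.18e-09), and matched libraries kept 0.146 to 0.242 of the unstimulated TPM. With LPS it fell by 0.90 ± 0.11 (adjusted p = 5.27e-07), and after scaling the value was -0.20 ± 0.11 (adjusted p = 0.0889). Only 1 of its 6 transcripts is annotated as coding, and that one held 23.7% to 58.8% of the gene's TPM per library.

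Cr2 (ENSMUSG00000026616, chromosome 1, 195136811 to 195176716) stayed low everywhere. It was at 0.25 to 2.36 TPM without stimulus, 0.281 to 0.821 TPM with LPS and 0.462 to 1.71 TPM with CpG. In a fit with no filter on low values its differences were -0.44 ± 0.21 with LPS (adjusted p = 0.0932) and -0.28 ± 0.21 with CpG (adjusted p = 0.411). Of its 4 highest values in the tested libraries, 3 were labelled Lum-/- (2.36 TPM with lumican alone, 1.71 TPM with CpG, 1.35 TPM with lumican and CpG) and 1 was wild type with biglycan (1.74 TPM). The label difference was 0.39 ± 0.21 (adjusted p = 0.384).

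Of the transcription factors, Pax5 (ENSMUSG00000014030, chromosome 4, 44524757 to 44710487) encodes the factor that keeps B cells committed to their lineage. Unstimulated libraries had 2.33, 3.53 and 3.32 TPM in wild type (no protein, lumican, biglycan), 1.93 TPM in cells labelled Lum-/- with lumican and 3.04 TPM in untreated cells labelled Bgn-/-. LPS libraries had 2.42, 4.8 and 5.16 TPM as lowest, median and highest, and CpG libraries 7.23, 9 and 11.8 TPM. All 7 CpG libraries were above all others, and the 2 LPS libraries inside the unstimulated range were both labelled Lum-/-. Pax5 rose by 1.45 ± 0.10 on the log2 scale with CpG (adjusted p = 4.04e-08), with matched libraries 3.03 to 4.04 times the unstimulated TPM. It rose by 0.49 ± 0.10 with LPS (adjusted p = 0.000194) and by 1.13 ± 0.10 after scaling (adjusted p = 4.56e-08). With the pair of near-identical libraries included, where Pax5 was at 6.87 and 6.84 TPM without stimulus, the LPS value was 0.14 (adjusted p = 0.517) and the CpG value 1.10 (adjusted p = 0.000358).

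Ebf1 (ENSMUSG00000057098, chromosome 11, 44617317 to 45008091), the factor that acts with Pax5 in early B cells, was near 1 TPM. It was at 0.953 to 1.64 TPM without stimulus, 0.675 to 1.52 TPM with LPS and 1.21 to 2.2 TPM with CpG. Matched libraries were higher with CpG in 5 of 5 pairs, by 1.13 to 1.86 times. Ebf1 rose by 0.31 ± 0.11 on the log2 scale with CpG (adjusted p = 0.0386). That call was lost without any of 8 libraries, the unstimulated ones other than wild type with biglycan, the CpG libraries of wild type and the CpG library labelled Bgn-/- without protein (adjusted p up to 0.0886). With LPS the value was -0.16 ± 0.11 (adjusted p = 0.192) as deposited and 0.27 ± 0.11 (adjusted p = 0.0333) after scaling. With all 21 libraries the Ebf1 values were 0.19 with CpG (adjusted p = 0.223) and -0.28 with LPS (adjusted p = 0.0318).

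Bhlhe41 (ENSMUSG00000030256, chromosome 6, 145858243 to 145865558) differed from the other members in which stimulus lowered it. Unstimulated libraries had 83.4, 94.3 and 93.3 TPM in wild type (no protein, lumican, biglycan), 63.9 TPM in cells labelled Lum-/- with lumican and 100 TPM in untreated cells labelled Bgn-/-. LPS libraries had 10.8, 22.4 and 27.8 TPM as lowest, median and highest, and CpG libraries 63.9, 92 and 111 TPM. The LPS range lay wholly below the others, and the CpG and unstimulated ranges overlapped. Bhlhe41 fell by 1.99 ± 0.08 on the log2 scale with LPS (adjusted p = 8.59e-13), and by 1.19 ± 0.07 after scaling (adjusted p = 2.01e-10). With CpG the difference was 0.07 ± 0.08 (adjusted p = 0.481). Of 12 macrophage markers, 9 fell and 3 rose with LPS, a share of falls near the 72.5% of all genes, with a median of -0.85 against -0.71. After scaling 5 fell and 5 rose, with a median of -0.05, while Bhlhe41 was still lower. Dendritic cell markers (6 genes, 2 tested, both lower with LPS and 1 after scaling) summed to 10 to 15.8 TPM without stimulus, 2.14 to 4.09 TPM with LPS and 4.35 to 7.98 TPM with CpG. The part of these cells in the Bhlhe41 level was not tested.

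**Figure D2:**
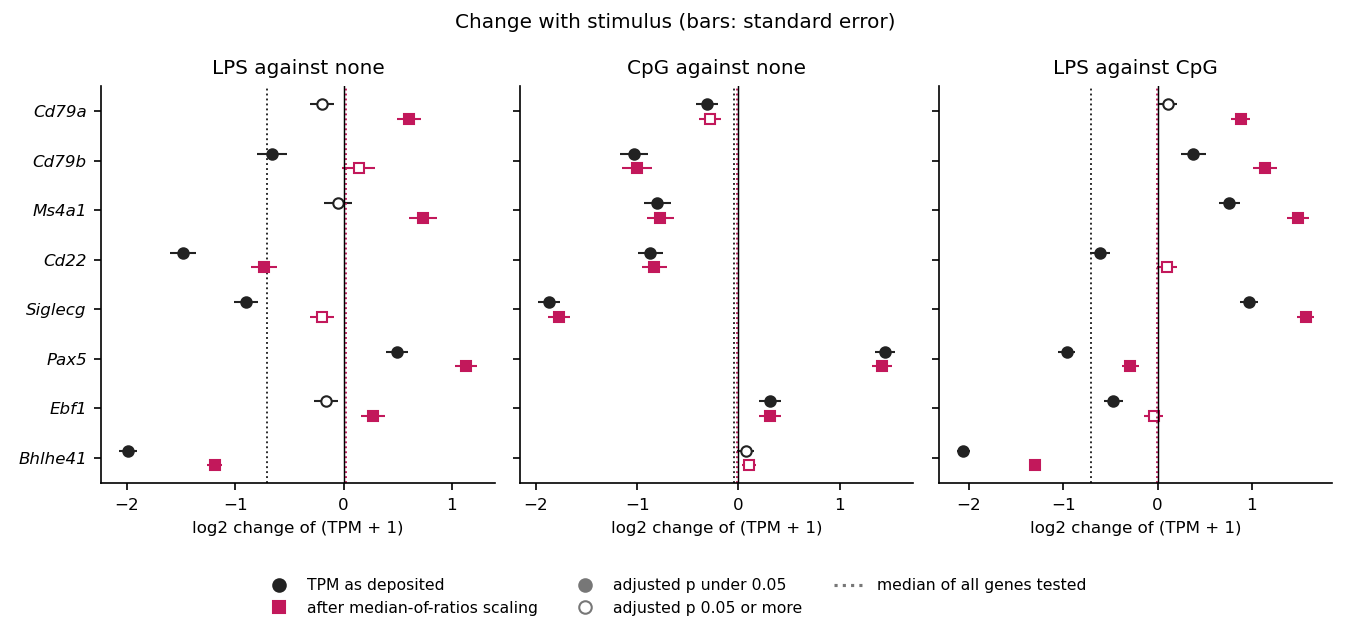
Log2 change of (TPM + 1) for the 8 tested genes (points, bars are standard errors) with LPS against none, CpG against none and LPS against CpG, as deposited (black) and after median-of-ratios scaling (red), with filled points for an adjusted p under 0.05 and dotted lines for the median of all genes. Scaling shifts all LPS values upward, turning the sign of Cd79a, Cd79b, Ms4a1 and Ebf1 for LPS against none, and leaves the CpG values near where they were.

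Tested directly, LPS and CpG differed for 7 of the 8 members, a share near that of all genes tested. With LPS, 3 were higher and 4 lower than with CpG, where 12.5% of all genes were higher and 75.9% lower. After scaling, 4 were higher and 2 lower, where 39.1% of all genes were higher and 39.8% lower. Siglecg stood above its CpG level under LPS by 0.97 ± 0.10 (adjusted p = 5.45e-08) and Ms4a1 by 0.76 ± 0.11 (adjusted p = 8.48e-06), each in 7 of 7 matched pairs. After scaling these differences were 1.57 and 1.49. Cd79b was higher by 0.38 ± 0.13 (adjusted p = 0.0115), in 6 of 7 pairs, and with all 21 libraries this call was lost (adjusted p = 0.0669). After scaling Cd79b was higher by 1.14 (adjusted p = 9.69e-07), and Cd79a went from 0.11 ± 0.10 (adjusted p = 0.314) to 0.88 (adjusted p = 6.91e-07). Bhlhe41 was lower by a log2 change of -2.06 ± 0.07 (adjusted p = 2.65e-13) and Pax5 by -0.96 ± 0.09 (adjusted p = 2.45e-08), each in 7 of 7 pairs, and both remained lower after scaling, at -1.30 and -0.29. Cd22 was lower by -0.61 ± 0.11 and Ebf1 by -0.47 ± 0.10, and scaling ended both calls, with Cd22 at 0.10 (adjusted p = 0.416) and Ebf1 at -0.04 (adjusted p = 0.744).

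A ratio within a library does not depend on the scale, so each member was set against the mean TPM of Cd79a and Cd79b of the same library, as a description without a test. The Pax5 ratio was 0.0398 to 0.0622 without stimulus, 0.0766 to 0.127 with LPS and 0.204 to 0.32 with CpG, so the 3 conditions did not overlap in the 19 libraries. The Siglecg ratio ran the other way, at 0.155 to 0.197, 0.0987 to 0.143 and 0.0366 to 0.062, again without overlap. Within the B cell genes, then, Pax5 and Siglecg changed unequally with both stimuli. The Bhlhe41 ratio was 1.32 to 2.22 without stimulus, 0.342 to 0.721 with LPS and 2.33 to 2.99 with CpG. The denominator itself was lower with CpG. Mean TPM without stimulus and with CpG was 57.8 and 45.5 for Cd79a, and 53.6 and 24.9 for Cd79b. Bhlhe41 itself had means of 87 and 88.9 TPM, so its higher CpG ratio reflects the lower denominator. The CpG ratios of the other members are raised by it too. The Cd22 ratio was 0.324 to 0.707, 0.152 to 0.227 and 0.279 to 0.4 in the same order, with the highest value in untreated wild type. The Ms4a1 ratio was 0.283 to 0.438 without stimulus, 0.359 to 0.54 with LPS and 0.243 to 0.377 with CpG, all overlapping their neighbours. The pair of near-identical libraries had Pax5 ratios of 0.0734 and 0.0799 and Siglecg ratios of 0.165 and 0.158, so with them the Pax5 ratio overlapped between none and LPS.

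**Figure D3:**
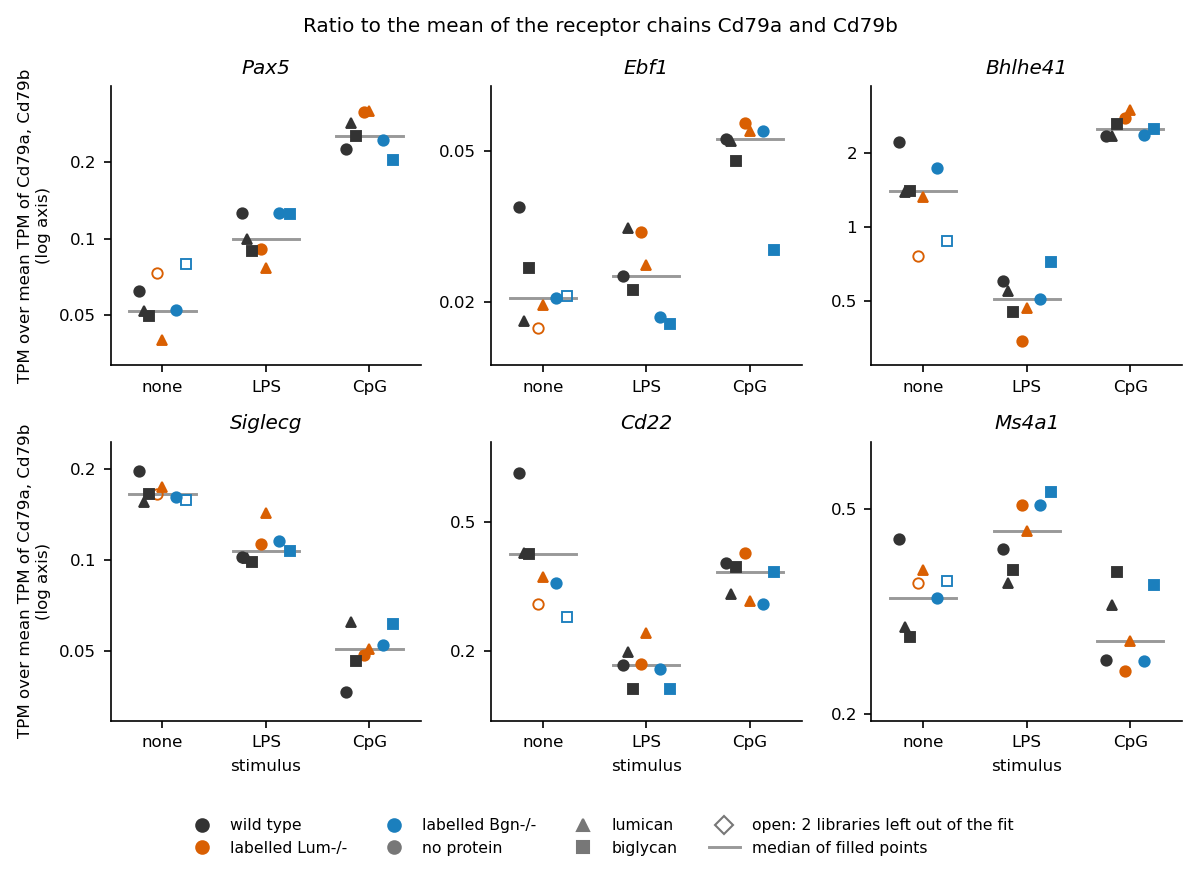
TPM of 6 genes divided by the mean TPM of Cd79a and Cd79b in the same library (vertical axes, logarithmic) by stimulus, with colours, shapes and open symbols for genotype label, protein and the pair left out. The Pax5 ratio is 0.204 or more in every CpG library and the Siglecg ratio 0.062 or less.

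Other genes of B cell function were read from lists chosen with earlier results of these data known. Of 11 immunoglobulin constant genes, 9 were tested, and all 9 rose with CpG, where 16.9% of all genes rose. Their median was 0.77, against -0.04 for all genes. In the tested libraries the 11 genes summed to 718 to 1068 TPM without stimulus and 1116 to 1767 TPM with CpG. The pair left out, also unstimulated, had sums of 1554 and 1454 TPM, inside the CpG range. Whether the 9 calls hold with the pair included was not tested. Ighg2b, an IgG heavy chain gene, went from 0.77 to 2.31 TPM without stimulus to 16 to 28 TPM with CpG, a rise of 3.22 ± 0.16 (adjusted p = 1.01e-09). Ighg2c rose by 2.99 ± 0.14 (adjusted p = 5.24e-10), Ighg3 by 1.38 ± 0.19 (adjusted p = 3.82e-05), and the IgM heavy chain Ighm by 0.68 ± 0.10 (adjusted p = 6.43e-05). These genes are similar in sequence, so reads may be split between them, and each value is uncertain to that extent. Whether the IgG transcripts came from class-switched cells was not tested. With LPS, 2 of the 9 rose and 2 fell as deposited, and 8 rose and 0 fell after scaling, a count that follows the scale. Of all genes, 14.8% rose and 72.5% fell as deposited, and 40.4% and 39.3% after scaling.

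Of 14 tested genes of the B cell surface and antigen presentation, 8 rose and 5 fell with CpG. Of all genes, 16.9% rose and 22.2% fell with CpG. Those that rose included Fcrl5, an Fc receptor-like protein (2.36 ± 0.10, adjusted p = 3.38e-10), and receptors for the survival factor BAFF, Tnfrsf13b (1.59 ± 0.09, adjusted p = 3.01e-09) and Tnfrsf13c (1.42 ± 0.13, adjusted p = 6.92e-07). Among those that fell were Cd37, a tetraspanin (-0.33 ± 0.06, adjusted p = 0.000964), and Fcrla (-1.06 ± 0.17, adjusted p = 0.000152). With LPS, 5 rose and 6 fell, where 14.8% of all genes rose and 72.5% fell. After scaling 11 rose and 2 fell, where 40.4% of all genes rose and 39.3% fell. The summed TPM of this list was 456 to 537 without stimulus and 502 to 569 with CpG. In the unstimulated pair left out it was 617 and 594 TPM, above both ranges. Of 15 receptor signalling genes, 3 rose and 4 fell with CpG, near the shares of all genes. With LPS, 3 of the 15 rose and 11 fell, and after scaling 7 rose and 6 fell. Both splits are near those of all genes, of which 14.8% rose and 72.5% fell as deposited and 40.4% and 39.3% after scaling. Several genes of this list are also expressed by macrophages.

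For the lists of this paragraph, the shares of all genes were 16.9% rising and 22.2% falling with CpG. With LPS they were 14.8% and 72.5% as deposited, and 40.4% and 39.3% after scaling. Of 12 other B lineage transcription factors, 3 rose and 3 fell with CpG, near those shares. Irf4, which drives activated B cells toward plasma cells, rose by 1.10 ± 0.09 (adjusted p = 3.35e-07), and Pou2af1, the octamer coactivator, by 0.69 ± 0.11 (adjusted p = 0.000186). Ikzf3 fell by 0.76 ± 0.11 on the log2 scale (adjusted p = 8.8e-05). With LPS, 1 rose and 6 fell, and after scaling 6 rose and 3 fell. Of 6 tested plasma cell genes, 4 rose and 0 fell with CpG, among them Mzb1 (0.39 ± 0.12, adjusted p = 0.0205) and Prdm1 (0.38 ± 0.06, adjusted p = 8.76e-05). With LPS, 2 of these rose (Prdm1 and Xbp1) and 1 fell (Sdc1), and after scaling 5 rose and 1 fell. Jchain, another tested gene of this list, averaged 4.37 TPM without stimulus and 3.46 TPM with CpG. The untested plasma cell genes averaged under 1 TPM. Which cells the plasma cell gene transcripts came from was not tested. Of 9 tested genes linked to B-1 cells, 3 rose and 1 fell with CpG, and 3 rose and 5 fell with LPS. After scaling 6 rose and 1 fell with LPS, so that the majority direction of this list follows the scale. The gene of CD11b, the selection marker, averaged 426 TPM and is in this list and among the macrophage markers. Cd5 averaged 0.455 TPM and was not tested. How much of the B-1 list comes from B-1 cells was not tested. Zbtb32, a transcriptional repressor, rose with both, by 1.06 ± 0.09 with CpG (adjusted p = 5.58e-07) and by 0.69 ± 0.09 with LPS (adjusted p = 2.94e-06), or 1.42 after scaling (adjusted p = 5.94e-10).

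**Figure D4:**
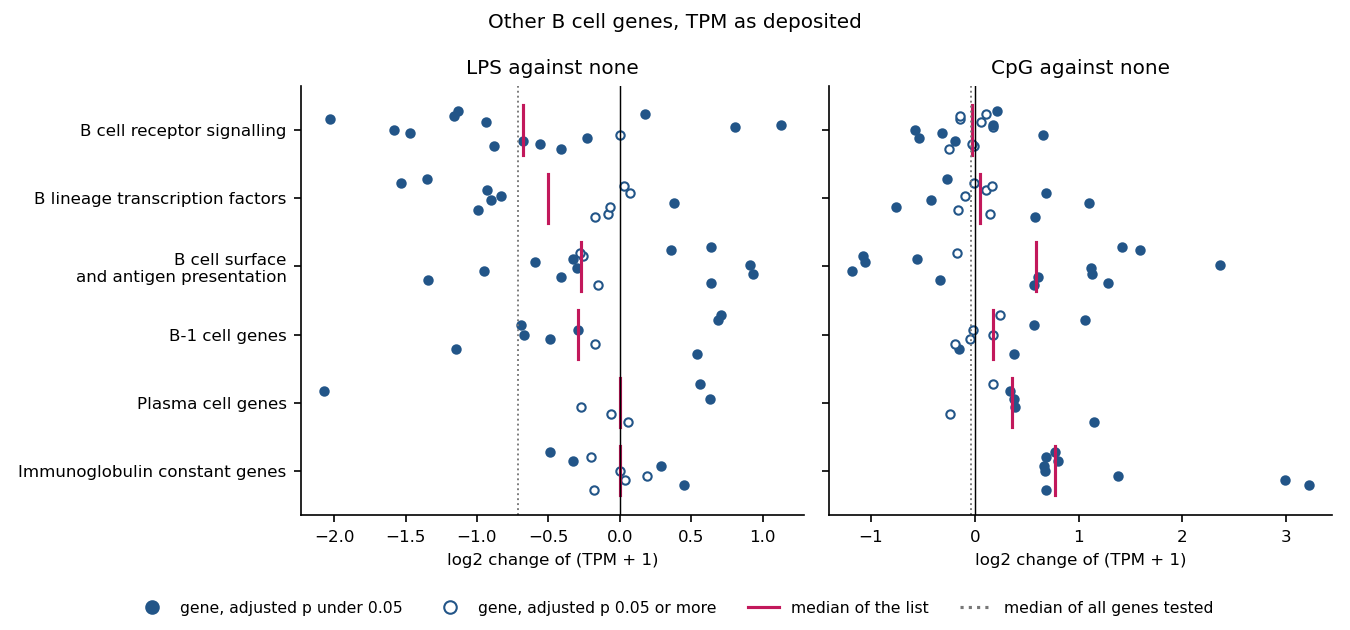
Log2 change of (TPM + 1) with LPS (left) and CpG (right) for the tested genes of 6 B cell lists, filled where the adjusted p is under 0.05, with the list median in red and the median of all genes dotted. All 9 immunoglobulin constant genes lie to the right of 0 with CpG, while the surface genes split into 8 higher and 5 lower.

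The genotype labels were compared over the same 19 libraries. In cells labelled Lum-/-, 5 of 8 members were lower than in wild type and 0 higher, where 8.04% of all genes were lower. The median over the members was -0.47, against -0.05 for all genes. Bhlhe41 was lower by a log2 difference of -0.62 ± 0.08 (adjusted p = 0.000194), Cd79b by -0.61 ± 0.14 (adjusted p = 0.0145), Pax5 by -0.52 ± 0.10 (adjusted p = 0.00448), Cd22 by -0.51 ± 0.12 (adjusted p = 0.0152) and Cd79a by -0.43 ± 0.11 (adjusted p = 0.0225). Each of these 5 was lower in 5 of 5 matched pairs of libraries, and so was Siglecg, whose value of -0.26 ± 0.11 did not pass (adjusted p = 0.141). Ms4a1 was at -0.37 ± 0.13 (adjusted p = 0.0748) and Ebf1 at -0.30 ± 0.11 (adjusted p = 0.101). Pax5 shows the pattern under LPS, where the 2 libraries labelled Lum-/- had 2.86 and 2.42 TPM and the 3 of wild type 4.68, 4.83 and 5.16 TPM.

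These label differences depend on which libraries enter. With all 21, only Bhlhe41 was called (-0.57, adjusted p = 0.005). That fit adds both libraries of the pair, with 106 and 98.1 TPM of Cd79a, and which of them ended the calls was not tested. The Cd79a call was also lost without the CpG library labelled Lum-/- (adjusted p = 0.0519), without the one given lumican and CpG (adjusted p = 0.0559), or without wild type with lumican and LPS (adjusted p = 0.0707). Leaving out that last library ended the Cd22 call as well (adjusted p = 0.0572). Ms4a1 gained a call without the LPS library labelled Lum-/- (adjusted p = 0.0292) or without the one with lumican alone (adjusted p = 0.045). Scaling ended the Cd79a call (adjusted p = 0.0549) and kept the other 4. Mast cell markers also differed by label: 4 of 5 tested were lower in cells labelled Lum-/-, where 8.04% of all genes were lower. The sum of 7 was 7.72 to 10.6 TPM with the label Lum-/-, 2.72 to 8.54 TPM with the label Bgn-/- and 3.54 to 116 TPM in wild type. The part of mast cells in the member levels was not tested.

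Cells labelled Bgn-/- gave 0 of 8 called members against wild type, where 1.07% of all genes were called. The widest member difference was -0.25 ± 0.12, for Cd22 (adjusted p = 0.451). Comparing the labels with each other, 5 of 8 members were lower in cells labelled Lum-/- than in cells labelled Bgn-/-, where 7.56% of all genes were lower. These were Bhlhe41 (-0.74 ± 0.10, adjusted p = 0.000189), Cd79b (-0.67 ± 0.17, adjusted p = 0.023), Ms4a1 (-0.54 ± 0.15, adjusted p = 0.0353), Pax5 (-0.53 ± 0.12, adjusted p = 0.0108) and Cd79a (-0.45 ± 0.14, adjusted p = 0.0442). With 1 library left out at a time, Bhlhe41 and Pax5 kept their calls in all 19 fits, while Cd79b lost it in 4, Ms4a1 in 9 and Cd79a in 16. The fit by 9 treatments ended the Cd79a call as well (adjusted p = 0.0692). After scaling only Bhlhe41 and Pax5 were called, and with all 21 libraries only Bhlhe41 (-0.59, adjusted p = 0.0219). The 2 comparisons against wild type share the wild-type libraries, and the 2 that involve the label Lum-/- share those libraries.

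**Figure D5:**
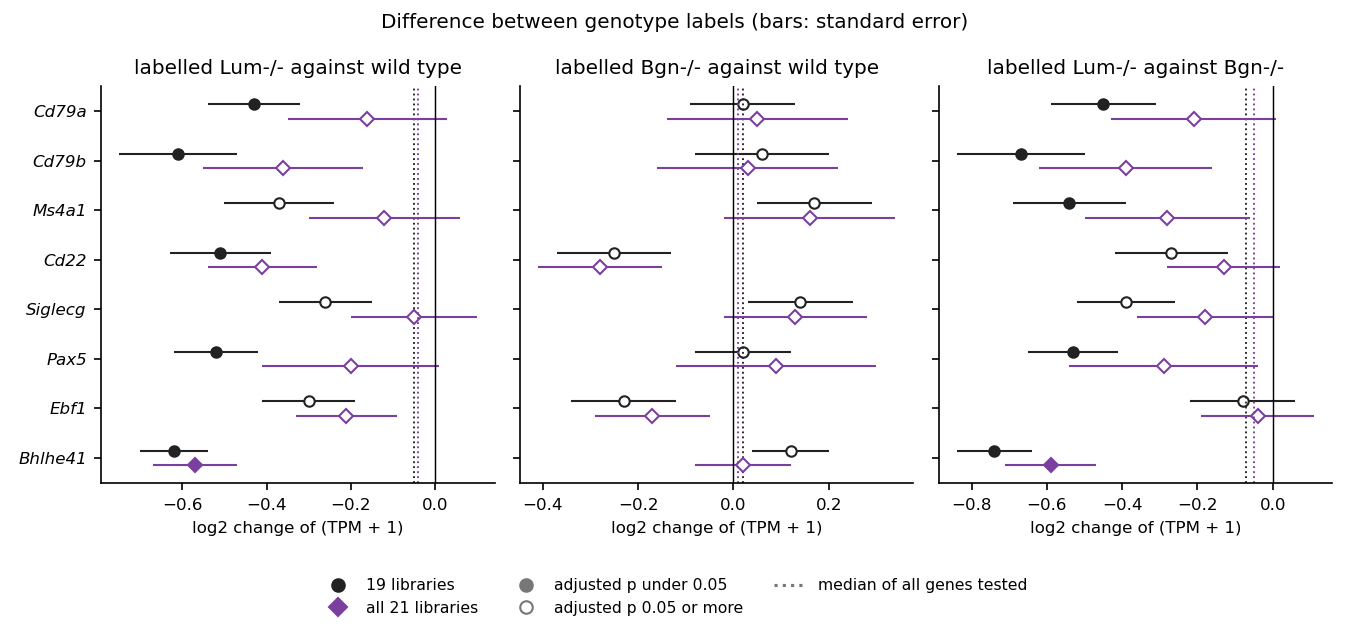
Log2 difference of (TPM + 1) between genotype labels for the 8 tested genes (bars are standard errors), in 19 libraries (black) and in all 21 (purple), filled where the adjusted p is under 0.05, with the median of all genes dotted. All 8 genes lie below 0 for the label Lum-/- against wild type, and with all 21 libraries Bhlhe41 alone is filled.

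Adding lumican or biglycan changed no member and no other gene past the threshold. Limma called 0 of 11672 genes (0%) for lumican and 0 (0%) for biglycan, with 1665 and 1836 genes at an unadjusted p under 0.05. Member differences ran from 0.01 ± 0.11 for Ebf1 to 0.32 ± 0.14 for Cd79b with lumican (adjusted p = 0.967 and 0.317). With biglycan they ran from -0.06 ± 0.11 for Ebf1 to 0.39 ± 0.14 for Cd79b (adjusted p = 0.807 and 0.223). Both proteins were compared with the same libraries without protein, and the untreated wild-type library, with 31.3 TPM of Cd79b, is among them. Without it the Cd79b values were 0.17 for lumican and 0.26 for biglycan. Whether the response to LPS or CpG differed between genotype labels was tested with an interaction term. That test called 4 genes (0.0343% of those tested) and no member, with Bhlhe41 nearest (adjusted p = 0.363).

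Likeness between members is described by Pearson's r of log2(TPM + 1) over the 19 libraries, which share preparations. Cd79a and Cd79b had r = 0.90 over all 19 and 0.94 after each stimulus mean was subtracted, and Cd79b had r = 0.85 with Siglecg and 0.81 with Ms4a1 over all 19. Pax5 and Siglecg had r = -0.78 over all and 0.60 within stimulus, and Pax5 and Ms4a1 -0.51 and 0.60. So Pax5 and each of these genes ran together between libraries of the same stimulus and apart between stimuli. Cr2 had an r between -0.14 and 0.25 with every other member over all 19. The genes outside the list most like the mean profile of the 8 tested members were Snn (r = 0.891), Cyb561a3 (0.883), Ablim1 (0.881), Cenpa (0.880), H2-DMb2 (0.877), Fkbp11 (0.871), Fgd6 (0.857) and Plxna1 (0.853). Within stimulus their r was 0.746 to 0.950, and their mean level 3.87 to 152 TPM.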

How the data were processed

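RNA of CD11b+ peritoneal cells was sequenced in 21 libraries. The deposited values are TPM per transcript, which the authors made with kallisto 0.44.0 after bcl2fastq 1.8.4, against GRCm38, per the submitters' processing notes. Of 89562 transcripts, 82788 carry a gene name in the table and 5423 more were named by their ID in GENCODE vM21. The other 1351, with 5350.9 to 7550.7 TPM per library, were not used. TPM was summed per gene. Reads per library were estimated from the steps between low values over 3704 genes, where 63.7% to 73.9% of the low values came within 0.2 of a whole number of reads. No count model was used, since TPM keeps no counts.

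Differences were tested with limma 3.58.1 (R 4.3.3) on log2(TPM + 1), two-sided, over genes averaging 1 TPM or more, with Benjamini-Hochberg adjustment. TPM is relative to all RNA of a library, so a large shift in other genes moves every value, and the median-of-ratios alternative re-centres it. Fold changes on log2(TPM + 1) understate changes of low genes. Leaving out each library, all libraries of a genotype, other pseudocounts and filters, all 21 libraries and a fit by 9 treatments were also tried. The scripts were tested on simulated data. The members and gene lists were chosen with earlier results of these data known. Besides the members, the genes eligible to be named were the first 4 measured of each list, its 3 called genes with the largest change in a comparison, and the 8 most like the members by Pearson's r. Other software was Python 3.11.15, pandas 2.3.3, numpy 2.4.6, scipy 1.17.1 and matplotlib 3.10.9.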

Additional observations from a re-analysis of the deposited data

Results flagged for a closer look

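Among 54 sets of libraries checked for one lying far from the others, 3 ratios to the mean of Cd79a and Cd79b stood out. Chance marks about 1 in 20 such sets. The Ebf1 ratio was 0.0275 in the CpG library labelled Bgn-/- with biglycan, below the 0.0469 to 0.0591 of the other CpG libraries. The Siglecg ratio was 0.143 in the LPS library labelled Lum-/- with lumican, above the 0.0987 to 0.115 of the other LPS libraries. The Cd22 ratio was 0.707 in untreated wild type, above the 0.324 to 0.401 of the other unstimulated libraries. The pair of near-identical libraries, which entered no test, had summed TPM over the 9 genes of 343 (labelled Lum-/-, untreated) and 324 (labelled Bgn-/-, biglycan alone), above the 209 to 294 of the other unstimulated libraries.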

How the results depend on the processing

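The labels give no replicate numbers. A matched block of genotype label and protein, chosen after seeing the data, kept the call and sign of all 8 tested members for LPS, CpG and LPS against CpG, with 10120, 4105 and 10287 genes called against 10183, 4561 and 10320. The number of genes called for CpG (4561) was 1264 without the wild-type libraries and 2276 in the fit by 9 treatments. For the label Lum-/- against wild type (1290) it was 592 with all 21 libraries, and 682 (without the LPS library labelled Lum-/-) to 1488 (without untreated wild type) over the fits leaving out 1 library. For the label Bgn-/- against wild type (125) it was 38 with all 21, 71 without the libraries labelled Lum-/-, 237 without untreated wild type, and 78 to 237 leaving out 1 library. Between the 2 labels (1275) it was 815 with no filter, 245 with all 21, 212 without wild type, and 612 to 1844 leaving out 1. Lumican (0) gave 21 without the libraries labelled Bgn-/-, 1 by 9 treatments, and 0 to 21 leaving out 1. Biglycan (0) gave 1 with all 21 and 1 without the label Bgn-/-. The interaction (4) gave 9 with pseudocount 5, 200 with no filter, 0 after scaling, 0 with all 21, 46 without untreated wild type, and 0 to 65 over the 17 fits leaving out 1 that kept every cell filled. With a genotype left out it gave 165 without wild type (2 residual degrees of freedom), 0 without the label Lum-/- and 0 without the label Bgn-/-. Scaling turned the sign of LPS values for Ms4a1 (0.73), Cd79a (0.60), Cd79b (0.14) and Ebf1 (0.27), of Cd22 for LPS against CpG (0.10), of Cd79a (-0.0085) and Pax5 (-0.0033) for the label Bgn-/-, and of Ebf1 for lumican (-0.0118). The fit by 9 treatments turned Ms4a1 for LPS (0.0860). Without untreated wild type the signs turned for the label Bgn-/- in Cd79a (-0.0473), Cd79b (-0.0590) and Pax5 (-0.0238), and for lumican in Ebf1 (-0.0015). With all 21 libraries they turned for lumican in Ebf1 (-0.0253), Pax5 (-0.0565) and Cd22 (-0.0416). Without wild type they turned for lumican in Ebf1 (-0.0577), Pax5 (-0.0275) and Cd22 (-0.0257), and for biglycan in Pax5 (-0.0528). Without the label Bgn-/- Ebf1 for biglycan was 0.0929. Leaving out 1 library moved Ms4a1 for LPS from -0.13 to 0.0446, and for the label Bgn-/- Cd79a from -0.0473 to 0.12, Cd79b from -0.0590 to 0.19 and Pax5 from -0.0358 to 0.0774. It moved Ebf1 between the labels from -0.15 to 0.0356, for lumican from -0.0489 to 0.0654 and for biglycan from -0.13 to 0.0060, and Cd22 for lumican from -0.0112 to 0.13. Of the values with a turned sign, the scaled LPS values of Ms4a1, Cd79a and Ebf1 passed the test and no others did. The cause was not tested. Over all such fits, 1140 member values kept sign and call, 21 changed sign, 50 lost a call and 5 gained one. Ebf1 and Cr2 rest on the fewest reads.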
